A study of Homo sapiens with 60 samples.

Results

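Sterol regulatory element binding proteins (SREBPs) are transcription factors, and the 32 genes described here are enzymes of cholesterol and fatty acid synthesis known as their targets, together with their regulators. The 32 genes were chosen by name as textbook members of the pathway, with earlier results of these data known. They were matched by symbol in a table of 60675 genes, and all 32 passed the filter on low counts, among 17676 genes tested. The set holds 18 genes of the sterol arm, 9 of the fatty acid arm and 5 regulators and transport genes. RNA was sequenced from SW1783, an established human astrocytoma line, collected after 24 h with a herbal extract prepared in 70% ethanol or with its DMSO vehicle. The extract groups were Astragali Radix (astragalus root) at 8.8, 44 and 220 µg/mL, and Cinnamomi Cortex (cinnamon bark) and the formulas of several herbs Sibjeondaebo-tang, Palmul-tang, Samul-tang and Sagunja-tang each at 20, 100 and 500 µg/mL, called low, medium and high. Per the text of the series, an extract whose IC20 lay below 500 µg/mL was given at its IC20 and at dilutions of it, and Astragali Radix is the one whose top dose lies below 500 µg/mL. Each of these 18 groups and the vehicle had 3 libraries, and Rehmanniae Radix Preparata (prepared rehmannia root) had 1 library a dose. DMSO in the vehicle was 0.1% by the sample labels but 2% by the series description, and the DMSO content of the extract groups is not stated in the labels. All titles name the same batch, but the vehicle libraries carry a sample code of their own, so extract and code cannot be told apart in any comparison with the vehicle, while the high and low doses of an extract share a code, as do Samul-tang and Sagunja-tang, and Sibjeondaebo-tang and Palmul-tang. The labels do not say whether replicates were separate cultures, so p-values measure the spread between these libraries, which may be technical.

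Total counts ranged from 19793387 to 37152410 a library. Of the markers for astrocytes, VIM was at 3722 to 6111 CPM (counts scaled to a common library size) and SLC1A3 at 11.9 to 29.3 CPM, while GFAP reached at most 0.259 CPM and AQP4 was at 0 in 32 of the libraries, so defining astrocyte markers were absent or near 0 in this line. Of the other markers, AIF1 (microglia) was at 0 in 58 libraries and CDH5 (endothelium) at 0 in 40. CD68, also on the microglia list, was at 87.2 to 217 CPM. Of the neuron markers, TUBB3 was at 41.7 to 136 CPM and SNAP25 at 5.51 to 26.7 CPM. RBFOX3 and SYP, of the same list, reached at most 0.684 and 1.96 CPM. Trends of transcript length and GC content over all genes held 16.6% and 39% of the variance of log2 CPM around the mean of all libraries in replicates 1 and 2 of Astragali Radix low, beside 1.63% in its replicate 3 and at most 4.06% in any other library, and these 2 are called the libraries that stand apart. Their fatty acid medians were -0.44 and -0.19 on the log2 scale relative to the vehicle mean, beside -0.03 in replicate 3. All libraries were fitted together and share 1 estimate of the spread, and the common dispersion was 0.00656 with these 2 libraries and 0.00153 without them. Counts of called genes are therefore given both ways, and without them Astragali Radix low is 1 library that is assumed to vary like the other groups.

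When membrane cholesterol is low, SCAP escorts the SREBPs from the endoplasmic reticulum to the Golgi, where they are cut and released to enter the nucleus. INSIG1 retains SCAP in the endoplasmic reticulum when sterols are plentiful, and its own gene is a target of the SREBPs. SREBF2 encodes the form that chiefly drives cholesterol synthesis, and SREBF1 encodes forms of which one chiefly drives fatty acid synthesis. In the nucleus SREBPs bind together with NF-Y and Sp1, which recognise the CCAAT and GC boxes.

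Promoters were read from RefSeq on GRCh38.p14, from 250 bases before to 50 after each start, for 28 of the 32 genes (no entry was used for ACAT2, FDFT1, SQLE and FASN). Promoters of 5 genes are printed, MSMO1 and HMGCS1 for the sterol arm, INSIG1 and SREBF2 for the regulators and SCD for the fatty acid arm. MSMO1 and SREBF2 are among the few of the 28 genes with TCACNCCA, so the printed set shows these letters more often than the 28 do. Bases are in lower case with the letters TCACNCCA and CCAAT, on either strand, in capitals.
MSMO1 chr4:165327419-165327718, plus strand: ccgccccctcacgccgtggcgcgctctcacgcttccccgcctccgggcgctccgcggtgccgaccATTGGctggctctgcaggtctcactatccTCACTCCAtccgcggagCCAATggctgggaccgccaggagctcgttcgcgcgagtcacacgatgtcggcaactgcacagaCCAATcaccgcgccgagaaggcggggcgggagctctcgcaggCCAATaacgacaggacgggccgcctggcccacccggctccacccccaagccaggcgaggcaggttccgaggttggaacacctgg
HMGCS1 chr5:43313363-43313662, minus strand: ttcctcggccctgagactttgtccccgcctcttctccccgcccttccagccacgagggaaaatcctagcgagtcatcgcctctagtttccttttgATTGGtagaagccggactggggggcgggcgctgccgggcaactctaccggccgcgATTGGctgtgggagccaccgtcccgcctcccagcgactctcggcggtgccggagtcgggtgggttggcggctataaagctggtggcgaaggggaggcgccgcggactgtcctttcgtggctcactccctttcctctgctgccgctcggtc
INSIG1 chr7:155297628-155297927, plus strand: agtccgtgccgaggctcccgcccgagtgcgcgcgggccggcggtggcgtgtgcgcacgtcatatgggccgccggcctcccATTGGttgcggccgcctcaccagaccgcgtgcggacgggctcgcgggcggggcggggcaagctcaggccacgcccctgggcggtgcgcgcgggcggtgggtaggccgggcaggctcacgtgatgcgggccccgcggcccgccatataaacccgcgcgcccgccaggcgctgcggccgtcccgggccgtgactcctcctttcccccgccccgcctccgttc
SREBF2 chr22:41832855-41833154, plus strand: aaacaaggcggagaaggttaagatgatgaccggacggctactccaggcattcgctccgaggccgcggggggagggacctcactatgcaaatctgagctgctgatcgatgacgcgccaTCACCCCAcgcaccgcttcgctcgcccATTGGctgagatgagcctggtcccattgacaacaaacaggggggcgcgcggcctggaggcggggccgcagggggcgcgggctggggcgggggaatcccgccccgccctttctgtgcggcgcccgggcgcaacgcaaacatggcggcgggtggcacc
SCD chr10:100346983-100347282, plus strand: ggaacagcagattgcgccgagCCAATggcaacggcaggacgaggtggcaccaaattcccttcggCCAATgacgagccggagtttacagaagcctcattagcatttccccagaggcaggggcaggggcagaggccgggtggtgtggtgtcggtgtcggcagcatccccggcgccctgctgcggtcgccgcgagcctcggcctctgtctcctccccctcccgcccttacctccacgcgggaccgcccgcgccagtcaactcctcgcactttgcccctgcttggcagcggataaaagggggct
A gene with several starts counted once if any of its promoters held the letters. The NF-Y letters CCAAT were present for 22 of the 28 genes (13 of 15 sterol, 6 of 8 fatty acid, 3 of 5 regulators), against 42.1% of 15843 protein-coding genes and 39.7% of all 27305 genes with a promoter of this length. The GC box GGGCGG was present for 26 of 28, against 64.3% of protein-coding genes and 48.3% of all genes, and the E-box CACGTG for 5 of 28, against 10.9% and 8.77%. The sterol response letters TCACNCCAC were present for 1 of 28 (SREBF2), against 1.51% and 1.39%. After that result a shorter form, TCACNCCA, which lies inside the first, and the protein-coding background were added; the shorter form was present for 3 of 28 (MSMO1, MVK and SREBF2), against 4.92% and 4.8%. A match is a description of letters and not a binding site, and no match says only that these letters are not in this window.

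In Astragali Radix high, most of the sterol arm rose, and the fatty acid arm changed in both directions. Against the vehicle, 15 of 18 sterol genes rose and 2 fell, with a median of 0.66 on the log2 scale, while 4 of 9 fatty acid genes rose and 3 fell, with a median of 0.11. Over all 32 genes 21 rose and 6 fell. In the same comparison 68.2% of all genes tested were called (32.6% higher, 35.6% lower), so most genes of the whole table changed as well, and the median of all genes was -0.06. Called means a Benjamini-Hochberg adjusted p below 0.05 in edgeR's quasi-likelihood test over all genes tested. Without the 2 libraries that stand apart, 30 members were called, against 72.3% of all genes. The median of the sterol arm minus that of the fatty acid arm was 0.54 ± 0.026 in Astragali Radix high libraries and -0.003 ± 0.008 in vehicle libraries (SD, n = 3 each). Both were measured from the mean of these same vehicle libraries. The vehicle value is therefore centred by construction and is no separate control, and its SD is narrowed in the same way. In bulk RNA fewer cells of a type and less RNA per cell cannot be told apart.

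INSIG1 (chromosome 7, 155297776 to 155310235) had 481, 483 and 437 CPM in Astragali Radix high libraries, against 182, 177 and 172 CPM in vehicle libraries. The groups did not overlap, and INSIG1 rose by 1.40 ± 0.06 on the log2 scale (SE, n = 3 each, adjusted p = 7.65e-24). MSMO1, a sterol C4 demethylase (chromosome 4, 165327623 to 165343160), had 131, 139 and 127 CPM in the high libraries, against 46.5, 48.0 and 51.7 CPM in the vehicle libraries, a change of 1.44 ± 0.11. HMGCS1, which makes the mevalonate precursor HMG-CoA, had 152, 152 and 140 CPM, against 58.8, 64.4 and 57.5 CPM, a change of 1.3 ± 0.08. In both genes every treated library lay above every vehicle library. FDFT1, squalene synthase, rose by 1.15 ± 0.06 (adjusted p = 2.89e-21). IDI1, CYP51A1 and PMVK rose by 1.11, 1.04 and 1.02, and SQLE, the squalene epoxidase, by 0.65 ± 0.07.

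Both genes of the sterol arm that fell act after squalene. LSS, lanosterol synthase, fell by 0.47 and TM7SF2, a sterol reductase, fell by 0.99. TM7SF2 was at a low level, at 0.201 to 0.738 CPM in the high libraries, against 0.671 CPM in the lowest vehicle library. The TM7SF2 groups overlapped. MVK, mevalonate kinase, was not called (0.10 ± 0.13, adjusted p = 0.509). STARD4, a cholesterol carrier, rose by 0.61 ± 0.14, SREBF1 fell by 0.34 ± 0.12, and SREBF2 and SCAP were not called.

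In the fatty acid arm SCD, FADS1, ELOVL5 and ACSS2 rose, while ACACA, ELOVL6 and ACLY fell. SCD, the delta-9 desaturase (chromosome 10, 100347124 to 100364834), had 803, 789 and 836 CPM in the high libraries, against 287, 275 and 305 CPM in the vehicle libraries. SCD rose by 1.48 ± 0.07 (adjusted p = 9.86e-24), and every treated library lay above the range of the vehicle. FADS1, a polyunsaturated fatty acid desaturase, rose by 0.52, ELOVL5, an elongase, by 0.50, and ACSS2, acetyl-CoA synthetase, by 0.23. ACACA, acetyl-CoA carboxylase, which makes the malonyl-CoA used in chain building, was at 84.2, 84.9 and 91.0 CPM in the high libraries, against 145, 146 and 151 CPM in the vehicle libraries. ACACA fell by 0.76 ± 0.10, ELOVL6 by 0.57 ± 0.08 and ACLY, ATP citrate lyase, by 0.35 ± 0.05. FASN, fatty acid synthase, was not called with all libraries, at -0.30 ± 0.14 (adjusted p = 0.0595).

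Values of the other named members follow the same division. FDFT1 had 210, 223 and 214 CPM in Astragali Radix high libraries, against 97.7, 94.6 and 99.1 CPM in vehicle libraries. STARD4 had 75.9, 78.2 and 82.9 CPM in the high libraries, against 52.2, 51.2 and 51.4 CPM in the vehicle libraries. Both genes were higher in every treated library. ELOVL6, an elongase of saturated chains, had 29.2, 32.4 and 34.9 CPM in the high libraries, against 48.2, 47.1 and 47.7 CPM in the vehicle libraries. SREBF1 had 35.9, 36 and 33.6 CPM in the high libraries, against 45.1, 45.6 and 42.9 CPM in the vehicle libraries. These last genes were lower in every treated library.

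Against the low dose the same genes can be compared within the extract. CYP51A1 had 298, 311 and 317 CPM at the high dose of Astragali Radix, against 159, 110 and 150 CPM at its low dose, and rose by 1.14 ± 0.06. ELOVL5 had 513, 501 and 442 CPM at the high dose of Astragali Radix, against 289, 162 and 326 CPM at its low dose, and rose by 0.90 ± 0.10. FADS1 had 132, 133 and 141 CPM at the high dose of Astragali Radix, against 76.1, 51.6 and 99.6 CPM at its low dose, and rose by 0.83 ± 0.09. In all 3 genes every high-dose library lay above every low-dose library. STARD4 had 75.9, 78.2 and 82.9 CPM at the high dose of Astragali Radix, against 41.1, 17.4 and 49.7 CPM at its low dose, and rose by 1.12 ± 0.14. Leaving out 1 library, the rise ranged from 0.99 to 1.23 in CYP51A1 and from 0.65 to 1.11 in ELOVL5. The range was 0.61 to 1.08 in FADS1 and 0.79 to 1.43 in STARD4, and no call was lost in these fits. Low replicates 1 and 2 in these comparisons are the libraries that stand apart, and every fit that left out 1 library kept at least 1 of them. In ELOVL5, FADS1 and STARD4 both lay below low replicate 3 (326, 99.6 and 49.7 CPM). The ranges therefore do not show the size of the rise without these libraries. SREBF1 had 35.9, 36 and 33.6 CPM at the high dose of Astragali Radix, against 36.3, 71.9 and 39.8 CPM at its low dose, and fell by 0.48 ± 0.12. SREBF1 in low replicate 2 was far above its other replicates, and without that library the change was -0.12 and was not called (range -0.67 to -0.12 over the 6 fits that left out 1 library).

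At the medium dose of Astragali Radix, INSIG1 and SCD were not called against the vehicle. INSIG1 had 185, 174 and 173 CPM and SCD 262, 257 and 258 CPM in the medium libraries, and 1 member rose and 4 fell, against 16.6% of all genes (7.75% higher, 8.81% lower). Without the 2 libraries that stand apart, 19 members were called, against 33.8% of all genes. The members that fell were SQLE, DHCR7, SREBF2 and FADS2, and ACSS2 rose. Against the low dose, 18 members were higher and 10 lower at the high dose, with 70% of all genes called (31.3% higher, 38.7% lower). Without low replicates 1 and 2, 27 members were called, against 65.5% of all genes, and the sterol and fatty acid medians were 0.74 and 0.08, beside 0.51 and 0.02 with them. EBP, a sterol isomerase named after its values were seen, had 59.9, 64.9 and 60.4 CPM at the high dose, against 72.3, 107 and 53.3 CPM at the low dose, and it was called lower with all libraries (-0.33 ± 0.10) and higher without low replicates 1 and 2 (0.19). Comparisons with the vehicle and with the low dose share the high-dose libraries.

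Replicates of Astragali Radix low differed widely for several members. FASN had 188, 550 and 292 CPM and INSIG1 145, 104 and 138 CPM in the low libraries. Against the vehicle 8 members rose and 11 fell, against 40.7% of all genes (21.6% higher, 19.2% lower), with a sterol median of 0.15 and a fatty acid median of -0.21. Without replicates 1 and 2 the count was 8, against 15.9% of all genes, and the medians were 0.03 and -0.02, so the gap between the arms rests on those libraries.

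**Figure D1:**
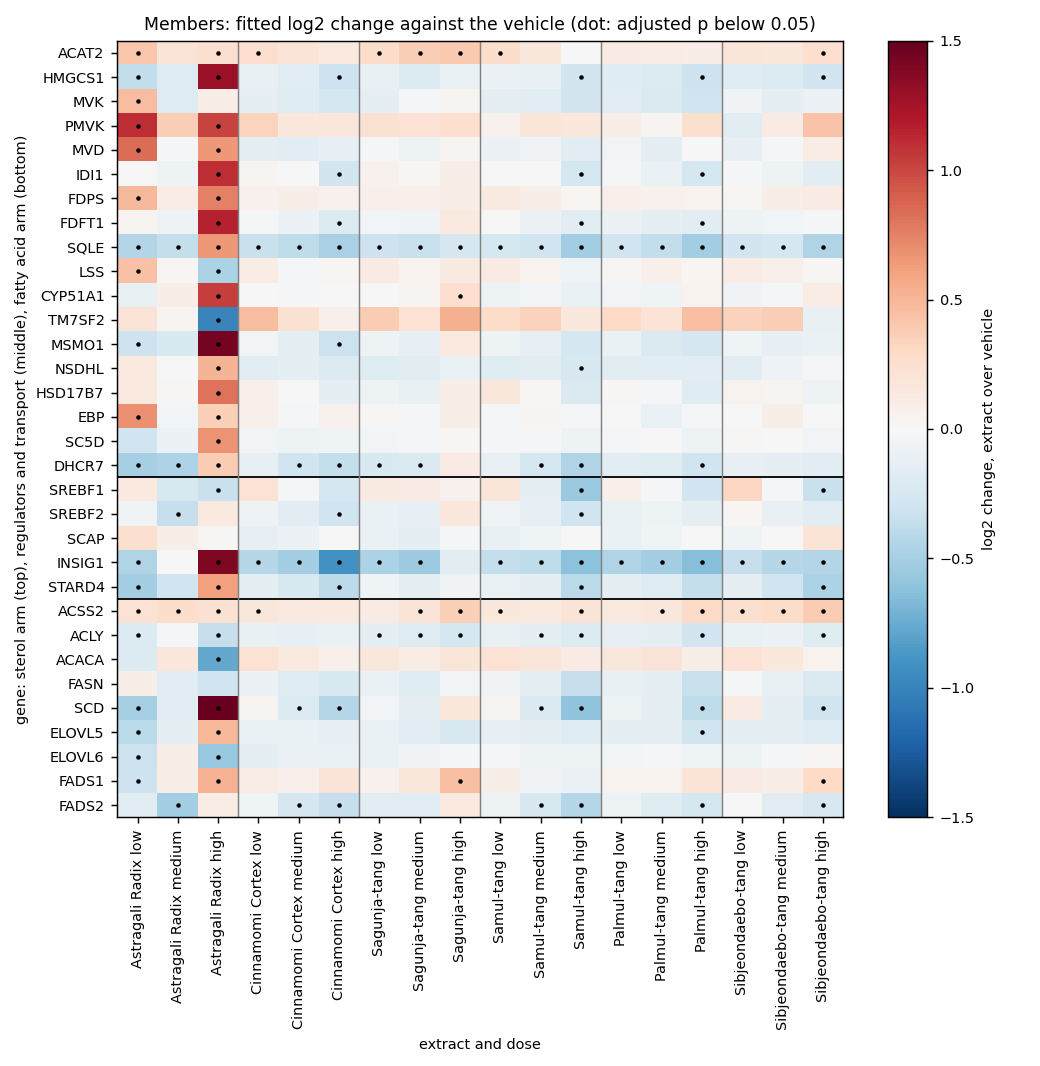
Fitted log2 change of each of the 32 genes against the vehicle (colour; red higher, blue lower) in the 18 groups of extract and dose, with a dot where the adjusted p was below 0.05. The column of Astragali Radix high stands out in the sterol arm, where 15 of 18 genes rose, and SQLE was lower in every other group.

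**Figure D2:**
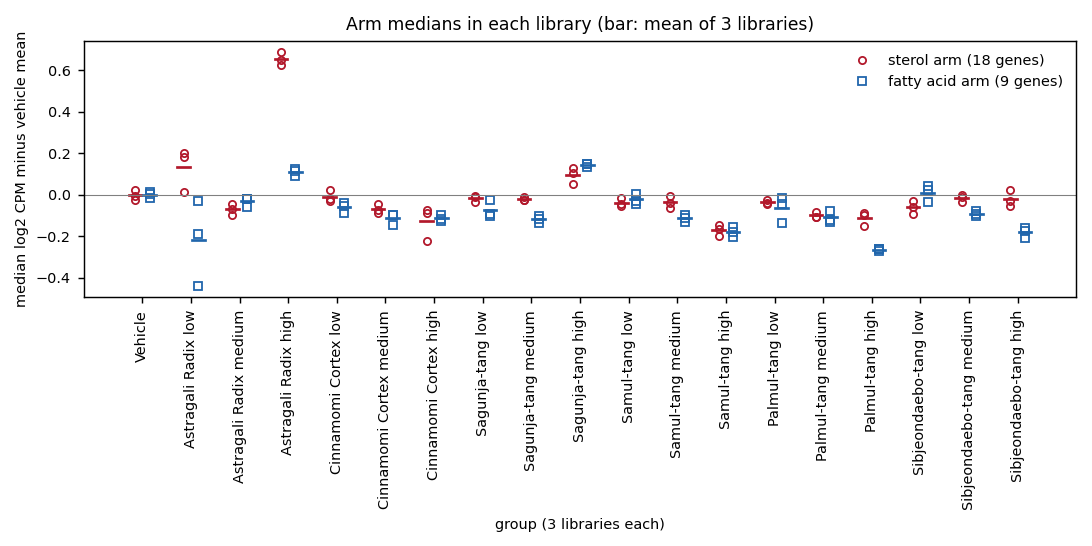
Median log2 CPM minus the vehicle mean of the sterol arm (circles) and the fatty acid arm (squares) in each library, with bars for the mean of 3 libraries. Sterol medians of the 3 Astragali Radix high libraries were 0.65, 0.69 and 0.63, with fatty acid medians of 0.13, 0.11 and 0.09, and Astragali Radix low shows the spread of its replicates.

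Outside Astragali Radix, the median of each arm was close to the vehicle at the high doses, and below it except in Sagunja-tang. In Samul-tang the high dose against the vehicle gave 1 member higher and 13 lower, against 19.7% of all genes (9.37% higher, 10.3% lower). In Cinnamomi Cortex it gave 0 higher and 11 lower, against 16.3% (7.7% higher, 8.56% lower), and in Palmul-tang 1 higher and 10 lower, against 20.3% (10% higher, 10.2% lower). Sibjeondaebo-tang gave 3 higher and 8 lower, against 23.1% (11.2% higher, 11.9% lower), and Sagunja-tang 4 higher and 2 lower, against 22.7% (11.2% higher, 11.6% lower). The count in Sagunja-tang was thus not above the background with all libraries, which did not hold without the 2 libraries that stand apart. Without the 2 libraries that stand apart the counts were 21 for Samul-tang (35.7% of all genes), 20 for Cinnamomi Cortex (32.8%), 20 for Palmul-tang (36.4%), 19 for Sibjeondaebo-tang (38.4%) and 17 for Sagunja-tang (39.2%). The sterol and fatty acid medians were -0.17 and -0.19 in Samul-tang, -0.13 and -0.10 in Cinnamomi Cortex, -0.12 and -0.27 in Palmul-tang, -0.03 and -0.18 in Sibjeondaebo-tang, and 0.10 and 0.15 in Sagunja-tang, so the widest gap between the arms at a high dose outside Astragali Radix was 0.15, in Sibjeondaebo-tang. With trends of transcript length and GC content removed, an alternative added after the data were seen, that gap fell to 0.08 in Palmul-tang and 0.08 in Sibjeondaebo-tang, beside 0.52 in Astragali Radix high; the median transcript was 2558 bases in the sterol arm and 4525 in the fatty acid arm.

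At the medium and low doses 2 to 6 members were called in these extracts. Cinnamomi Cortex gave 0 higher and 5 lower at the medium dose, against 13% of all genes (5.86% higher, 7.17% lower), and 2 higher and 2 lower at the low dose, against 13.2% of all genes (6.13% higher, 7.12% lower). Sagunja-tang gave 2 higher and 4 lower at the medium dose, against 13.5% of all genes (6.16% higher, 7.31% lower), and 1 higher and 4 lower at the low dose, against 14.1% of all genes (6.03% higher, 8.03% lower). Samul-tang gave 0 higher and 6 lower at the medium dose, against 12.1% of all genes (5.19% higher, 6.88% lower), and 2 higher and 2 lower at the low dose, against 11.3% of all genes (4.96% higher, 6.37% lower). Members called lower outnumbered those called higher in these medium groups, and so did all genes. Palmul-tang gave 1 higher and 2 lower at the medium dose, against 10.2% of all genes (4.44% higher, 5.75% lower), and 0 higher and 2 lower at the low dose, against 9.84% of all genes (4.27% higher, 5.57% lower). Sibjeondaebo-tang gave 1 higher and 2 lower at the medium dose, against 5.76% of all genes (2.31% higher, 3.45% lower), and 1 higher and 2 lower at the low dose, against 9.61% of all genes (4.15% higher, 5.47% lower). Without the 2 libraries that stand apart these 10 groups gave 10 to 17 members, against 20.2% to 31.1% of all genes.

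SQLE was lower than in the vehicle in 17 of 18 groups, including every low dose, and INSIG1 was lower in 15 of 18 groups. INSIG1 had 92.9, 97.0 and 92.8 CPM in Cinnamomi Cortex high libraries, against 182, 177 and 172 CPM in vehicle libraries, and fell by 0.91 ± 0.06. The vehicle has a sample code of its own, so extract and code cannot be told apart in these differences. All 18 comparisons also share the same vehicle libraries, so counts over groups are not independent findings. The share of all genes called in as many groups was not counted. ACSS2 was higher than in the vehicle in 13 of 18 groups and lower in 0, with a range of 0.13 to 0.38, and ACAT2, a thiolase of the mevalonate arm, was higher in 8. In the fit with all libraries FASN and SCAP were called in 0 of 18 groups, with FASN at -0.34 to 0.08 and SCAP at -0.14 to 0.24. The spread in that fit includes the libraries that stand apart, and the counts over groups in this paragraph are not given without them.

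SQLE had 65.6, 59.9 and 63.2 CPM in Cinnamomi Cortex high, 60.6, 64.6 and 59.5 CPM in Samul-tang high, 63.2, 58.6 and 62.9 CPM in Palmul-tang high, 66.7, 64 and 63.2 CPM in Sibjeondaebo-tang high, and 75.5, 72.8 and 73.4 CPM in Sagunja-tang high, against 90, 85.3 and 89.4 CPM in vehicle libraries. It fell by 0.49 ± 0.07 in Cinnamomi Cortex, 0.52 ± 0.07 in Samul-tang, 0.52 ± 0.07 in Palmul-tang, 0.45 ± 0.07 in Sibjeondaebo-tang and 0.26 ± 0.07 in Sagunja-tang. Every one of these libraries lay below the vehicle. HMGCS1 had 49.9, 50.2 and 48.1 CPM in Samul-tang high, 45.4, 48.6 and 52.3 CPM in Palmul-tang high, and 46, 50.2 and 51.7 CPM in Sibjeondaebo-tang high, against 58.8, 64.4 and 57.5 CPM in vehicle libraries. It fell by 0.29 ± 0.08 in Samul-tang, 0.31 ± 0.08 in Palmul-tang and 0.29 ± 0.08 in Sibjeondaebo-tang. Leaving out 1 library, the HMGCS1 call was lost in 2 of 6 fits in Palmul-tang, 2 of 6 in Sibjeondaebo-tang and 1 of 6 in Samul-tang. DHCR7 had 35.1, 33.9 and 37.3 CPM in Cinnamomi Cortex high, 32.7, 32.6 and 34.3 CPM in Samul-tang high, and 36, 35.7 and 39.4 CPM in Palmul-tang high, against 44.2, 44.1 and 48.3 CPM in vehicle libraries. It fell by 0.36 ± 0.08 in Cinnamomi Cortex, 0.45 ± 0.08 in Samul-tang and 0.30 ± 0.08 in Palmul-tang. MSMO1 had 39.8, 36.4 and 41 CPM in Cinnamomi Cortex high, against 46.5, 48 and 51.7 CPM in vehicle libraries. It fell by 0.32 ± 0.11 in Cinnamomi Cortex. The MSMO1 call was lost when any 1 library of the comparison was left out. In these extracts each of these sterol genes was lower where it was called, while ACAT2 and CYP51A1, lanosterol demethylase, were higher. ACAT2 had 47.6, 51.2 and 47.8 CPM in Sagunja-tang high, and 41.8, 39.1 and 51.4 CPM in Sibjeondaebo-tang high, against 36.7, 38.1 and 36.4 CPM in vehicle libraries. It rose by 0.40 ± 0.07 in Sagunja-tang and 0.25 ± 0.08 in Sibjeondaebo-tang, where it was 0.13 and not called without high replicate 3 (range 0.13 to 0.34 over the 6 fits that left out 1 library). CYP51A1 had 182, 183 and 172 CPM in Sagunja-tang high, against 149, 154 and 149 CPM in vehicle libraries. It rose by 0.25 ± 0.06 in Sagunja-tang.

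Among the regulators, INSIG1, STARD4, SREBF2 and SREBF1 were lower where called at the high doses of these extracts. INSIG1 had 114, 117 and 117 CPM in Samul-tang high, 111, 115 and 115 CPM in Palmul-tang high, and 128, 128 and 136 CPM in Sibjeondaebo-tang high, against 182, 177 and 172 CPM in vehicle libraries. It fell by 0.61 ± 0.06 in Samul-tang, 0.64 ± 0.06 in Palmul-tang and 0.44 ± 0.06 in Sibjeondaebo-tang. STARD4 had 38.6, 39.6 and 39.5 CPM in Cinnamomi Cortex high, 39.8, 39.6 and 37.5 CPM in Samul-tang high, and 33.4, 41.8 and 35.9 CPM in Sibjeondaebo-tang high, against 52.2, 51.2 and 51.4 CPM in vehicle libraries. It fell by 0.40 ± 0.14 in Cinnamomi Cortex, 0.41 ± 0.14 in Samul-tang and 0.48 ± 0.14 in Sibjeondaebo-tang. The STARD4 calls in Cinnamomi Cortex and Samul-tang were lost when any 1 library was left out, and that in Sibjeondaebo-tang in 1 of 6 such fits. SREBF2 had 77.6, 77.1 and 73.7 CPM in Cinnamomi Cortex high, against 94.5, 89.6 and 96.8 CPM in vehicle libraries. It fell by 0.30 ± 0.09 in Cinnamomi Cortex, a call lost in 3 of the 6 fits that left out 1 library. SREBF1 had 29.5, 30.4 and 31.2 CPM in Samul-tang high, and 36.9, 32.5 and 36.3 CPM in Sibjeondaebo-tang high, against 45.1, 45.6 and 42.9 CPM in vehicle libraries. It fell by 0.55 ± 0.12 in Samul-tang and 0.34 ± 0.12 in Sibjeondaebo-tang, and the call in Sibjeondaebo-tang was lost in 4 of the 6 fits that left out 1 library. No library of these groups overlapped the vehicle.

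In the fatty acid arm SCD, FADS2, ACLY and ELOVL5 were lower where called and ACSS2 and FADS1 were higher, in the same extracts. SCD had 218, 214 and 216 CPM in Cinnamomi Cortex high, 192, 188 and 190 CPM in Samul-tang high, 223, 217 and 227 CPM in Palmul-tang high, and 245, 230 and 228 CPM in Sibjeondaebo-tang high, against 287, 275 and 305 CPM in vehicle libraries. It fell by 0.42 ± 0.07 in Cinnamomi Cortex, 0.61 ± 0.07 in Samul-tang (adjusted p = 3.91e-09), 0.38 ± 0.07 in Palmul-tang and 0.30 ± 0.07 in Sibjeondaebo-tang. FADS2 had 65.8, 64 and 61.9 CPM in Cinnamomi Cortex high, and 61.1, 60.6 and 60.0 CPM in Samul-tang high, against 82.1, 76.5 and 85.4 CPM in vehicle libraries. It fell by 0.35 ± 0.07 in Cinnamomi Cortex and 0.43 ± 0.07 in Samul-tang. ACLY had 421, 420 and 438 CPM in Sagunja-tang high, 439, 441 and 443 CPM in Samul-tang high, and 420, 421 and 410 CPM in Palmul-tang high, against 508, 506 and 515 CPM in vehicle libraries. It fell by 0.26 ± 0.05 in Sagunja-tang, 0.21 ± 0.05 in Samul-tang and 0.29 ± 0.05 in Palmul-tang. ACSS2 and FADS1 went the other way. ACSS2 had 46.5, 45.8 and 44.8 CPM in Sagunja-tang high, and 44.8, 46.5 and 47.1 CPM in Sibjeondaebo-tang high, against 35.3, 36.3 and 35.1 CPM in vehicle libraries. It rose by 0.36 ± 0.05 in Sagunja-tang and 0.38 ± 0.05 in Sibjeondaebo-tang. FADS1 had 127, 132 and 129 CPM in Sagunja-tang high, and 123, 112 and 114 CPM in Sibjeondaebo-tang high, against 95.6, 95.7 and 91.9 CPM in vehicle libraries. It rose by 0.46 ± 0.09 in Sagunja-tang and 0.30 ± 0.09 in Sibjeondaebo-tang, where the call was lost in 1 of the 6 fits that left out 1 library. ELOVL5 had 279, 276 and 285 CPM in Palmul-tang high, against 344, 343 and 343 CPM in vehicle libraries. It fell by 0.29 ± 0.10 in Palmul-tang. The ELOVL5 call was lost when any 1 library was left out.

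The remaining calls at the high doses outside Astragali Radix lie outside the rule for named genes and were added after their values were seen. IDI1 was lower than in the vehicle, at -0.28 on the log2 scale in Cinnamomi Cortex, -0.26 in Samul-tang and -0.27 in Palmul-tang. FDFT1 was lower, at -0.21 in Cinnamomi Cortex, -0.17 in Samul-tang and -0.17 in Palmul-tang. Both genes act in the steps before squalene, as does HMGCS1, which was at -0.31 in Cinnamomi Cortex. SREBF2 fell by 0.30 in Samul-tang, and NSDHL, a dehydrogenase of sterol demethylation, fell by 0.24 there. FADS2 fell by 0.27 in Palmul-tang and by 0.24 in Sibjeondaebo-tang, and ACLY fell by 0.18 in Sibjeondaebo-tang. ACSS2 rose by 0.28 in Palmul-tang and by 0.19 in Samul-tang. In each of these calls every treated library lay outside the range of the vehicle libraries, and these calls were not followed when 1 library was left out.

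**Figure D3:**
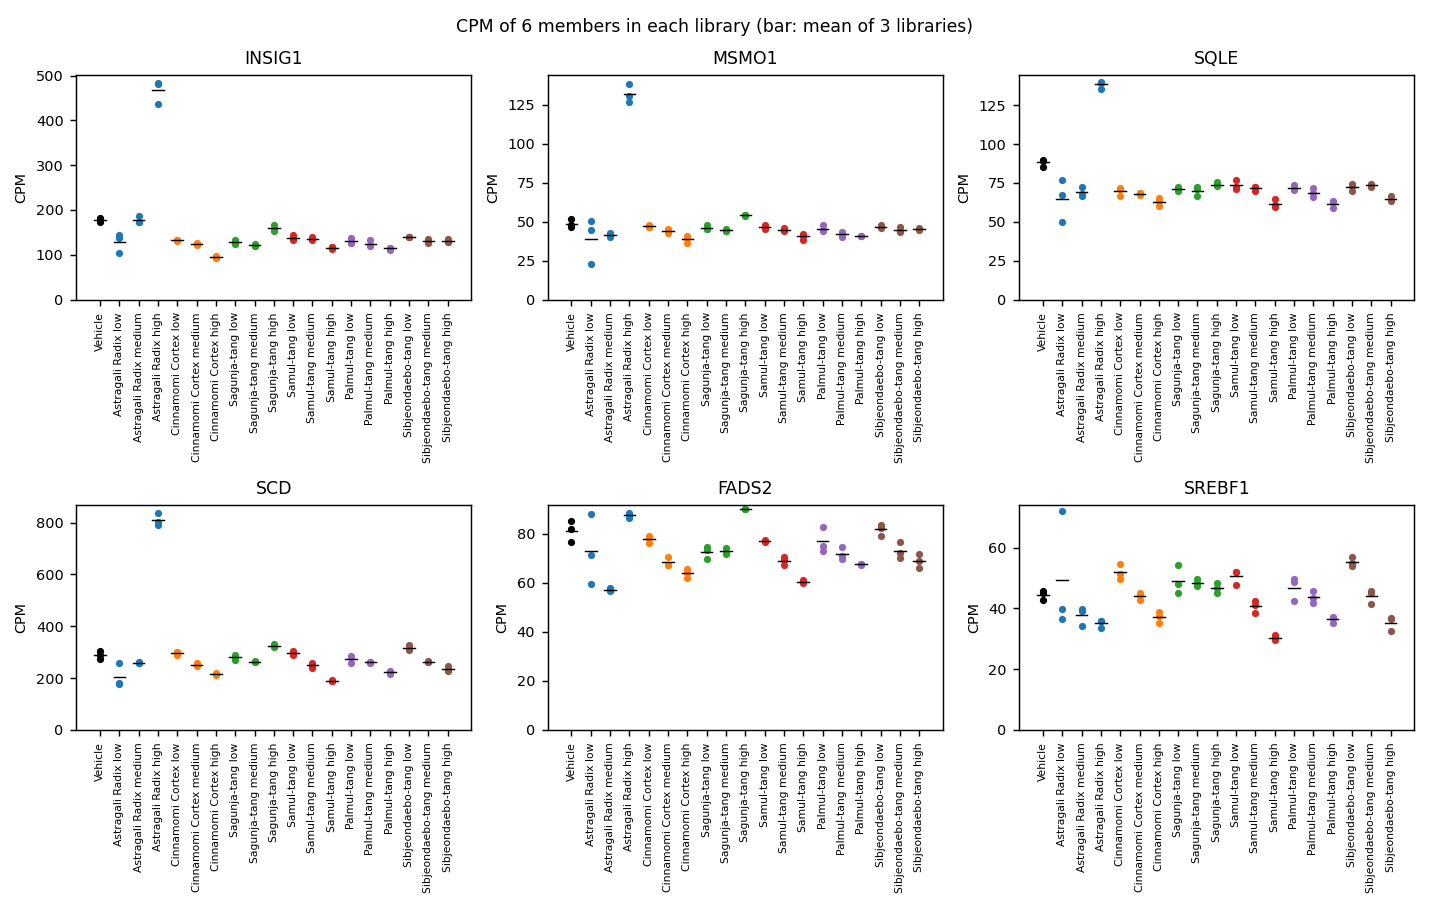
CPM of INSIG1, MSMO1, SQLE, SCD, FADS2 and SREBF1 in each library, by group, with bars for the mean of 3 libraries. INSIG1, MSMO1, SQLE and SCD stand far above all other groups in Astragali Radix high, and SREBF1 does not.

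Between the high and low dose of the same extract, SCD and SREBF1 were each called lower at the high dose in 4 of 6 extracts. In Astragali Radix SCD rose, by 1.98 ± 0.07. In Samul-tang, SCD had 192, 188 and 190 CPM at the high dose, against 289, 300 and 305 CPM at the low dose, a change of -0.65 ± 0.07 (adjusted p = 3.28e-09). SREBF1 (chromosome 17, 17810399 to 17837002) had 29.5, 30.4 and 31.2 CPM at the high dose, against 47.6, 52.0 and 52.0 CPM at the low dose, a change of -0.74 ± 0.11. In both genes the groups did not overlap. SCD fell by 0.46 in Cinnamomi Cortex, by 0.43 in Sibjeondaebo-tang and by 0.30 in Palmul-tang. SREBF1 fell by 0.65 in Sibjeondaebo-tang, by 0.48 in Cinnamomi Cortex and by 0.48 in Astragali Radix, and it was at -0.36 ± 0.11 in Palmul-tang (adjusted p = 0.0627). The call of SREBF1 in Astragali Radix was lost without low replicate 2 and without low replicates 1 and 2 together. Its call in Cinnamomi Cortex was lost when any 1 library of the comparison was left out.

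In Samul-tang 7 members fell and 0 rose between the doses, against 1.41% of all genes (0.747% higher, 0.662% lower). They were SQLE, HSD17B7, DHCR7, SREBF1, INSIG1, SCD and FADS2. Leaving out the 2 libraries that stand apart, 19 members were called, against 6.01% of all genes. FADS2, the delta-6 desaturase (chromosome 11, 61792980 to 61867354), had 61.1, 60.6 and 60.0 CPM at the high dose, against 77.1, 76.5 and 77.4 CPM at the low dose, a change of -0.35 ± 0.07. DHCR7, the last reductase of cholesterol synthesis, had 32.7, 32.6 and 34.3 CPM, against 43.2, 40.9 and 42.3 CPM, a change of -0.34 ± 0.08. Neither gene overlapped between the doses. The adjusted p of SQLE was 0.0467 and of HSD17B7 0.0418, and the calls of SQLE, HSD17B7 and INSIG1 were lost in at least 5 of the 6 fits that left out 1 library, and that of DHCR7 in 2.

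In Cinnamomi Cortex 5 members fell between the doses and 0 rose, against 0.441% of all genes (0.243% higher, 0.198% lower), and 14 were called without the 2 libraries that stand apart, against 2.91%. INSIG1 had 92.9, 97.0 and 92.8 CPM at the high dose, against 130, 133 and 133 CPM at the low dose, a change of -0.48 ± 0.06 (adjusted p = 2.47e-06). IDI1, SREBF1 and FADS2 were called with all libraries and lost the call when any 1 library of the comparison was left out. In Palmul-tang SCD and ACLY fell, 2 members against 3.68% of all genes (1.92% higher, 1.77% lower), or 14 without the 2 libraries, against 11.8%. In Sibjeondaebo-tang PMVK and CYP51A1 rose and SREBF1, SCD and FADS2 fell, 5 members against 21.3% of all genes (10.6% higher, 10.7% lower), or 19 without the 2 libraries, against 38.7%, so the share of members was below the share of all genes with all libraries.

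Sagunja-tang went the other way, with 6 members higher and 0 lower at the high dose, against 3.78% of all genes (2.06% higher, 1.71% lower). They were CYP51A1, DHCR7, INSIG1, ACSS2, FADS1 and FADS2, and 12 members were called without the 2 libraries that stand apart, against 13.1%. FADS2 had 90, 90.2 and 89.9 CPM at the high dose, against 69.9, 73.3 and 74.6 CPM at the low dose, a change of 0.31 ± 0.07 (adjusted p = 0.00172). INSIG1 had 158, 153 and 166 CPM, against 124, 126 and 132 CPM, a change of 0.32 ± 0.06. DHCR7 had 48.8, 49.8 and 50.7 CPM, against 41.7, 37.1 and 38.1 CPM, a change of 0.35 ± 0.07. None of the 3 genes overlapped between the doses. INSIG1 lay below every vehicle library at both doses, while FADS2 and DHCR7 lay below the vehicle libraries at the low dose and above them at the high dose.

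The libraries behind the smaller dose changes were as follows. SCD had 218, 214 and 216 CPM at the high dose of Cinnamomi Cortex, against 299, 302 and 289 CPM at its low dose, and fell by 0.46 ± 0.07. SCD had 245, 230 and 228 CPM at the high dose of Sibjeondaebo-tang, against 308, 311 and 327 CPM at its low dose, and fell by 0.43 ± 0.07. SCD had 223, 217 and 227 CPM at the high dose of Palmul-tang, against 286, 258 and 281 CPM at its low dose, and fell by 0.30 ± 0.07. SCD did not overlap between the doses in these extracts. SREBF1 had 38.9, 35 and 37.3 CPM at the high dose of Cinnamomi Cortex, against 49.7, 54.7 and 51.3 CPM at its low dose, and fell by 0.48 ± 0.11. SREBF1 had 36.9, 32.5 and 36.3 CPM at the high dose of Sibjeondaebo-tang, against 54, 54.7 and 56.8 CPM at its low dose, and fell by 0.65 ± 0.11. These SREBF1 values did not overlap either. FADS2 had 65.8, 64 and 61.9 CPM at the high dose of Cinnamomi Cortex, against 79.1, 76.1 and 78.2 CPM at its low dose, and fell by 0.28 ± 0.07. FADS2 had 71.7, 66.1 and 69 CPM at the high dose of Sibjeondaebo-tang, against 82.5, 79.3 and 83.7 CPM at its low dose, and fell by 0.25 ± 0.07. IDI1 had 38, 36.3 and 37.8 CPM at the high dose of Cinnamomi Cortex, against 45.7, 47.6 and 46.8 CPM at its low dose, and fell by 0.32 ± 0.08. IDI1, isopentenyl diphosphate isomerase, supplies the building blocks of squalene.

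In Samul-tang the weaker calls rested on these values. INSIG1 had 114, 117 and 117 CPM at the high dose of Samul-tang, against 133, 136 and 144 CPM at its low dose, and fell by 0.25 ± 0.06. SQLE had 60.6, 64.6 and 59.5 CPM at the high dose of Samul-tang, against 71.4, 72.2 and 77 CPM at its low dose, and fell by 0.26 ± 0.07. HSD17B7 had 4.69, 4.28 and 4.91 CPM at the high dose of Samul-tang, against 6.57, 5.97 and 5.64 CPM at its low dose, and fell by 0.39 ± 0.10. HSD17B7 is a ketoreductase of sterol demethylation. ACLY had 420, 421 and 410 CPM at the high dose of Palmul-tang, against 476, 464 and 470 CPM at its low dose, and fell by 0.17 ± 0.05. PMVK had 30.7, 31.3 and 31.6 CPM at the high dose of Sibjeondaebo-tang, against 20.3, 21.5 and 20.7 CPM at its low dose, and rose by 0.58 ± 0.17. CYP51A1 had 163, 163 and 163 CPM at the high dose of Sibjeondaebo-tang, against 144, 145 and 146 CPM at its low dose, and rose by 0.17 ± 0.06. The ACLY call and the CYP51A1 call were lost when any 1 library of the comparison was left out. FADS1 had 127, 132 and 129 CPM at the high dose of Sagunja-tang, against 103, 96.2 and 96.6 CPM at its low dose, and rose by 0.40 ± 0.09. ACSS2 had 46.5, 45.8 and 44.8 CPM at the high dose of Sagunja-tang, against 38.4, 38.4 and 39.6 CPM at its low dose, and rose by 0.24 ± 0.05. CYP51A1 had 182, 183 and 172 CPM at the high dose of Sagunja-tang, against 154, 151 and 150 CPM at its low dose, and rose by 0.24 ± 0.06. All 3 of these genes were higher in every high-dose library of Sagunja-tang, and the CYP51A1 call was lost in 4 of the 6 fits that left out 1 library.

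The dose changes of Samul-tang and Sagunja-tang, whose libraries share a sample code and doses, differed for 9 members in a test of the difference itself, all lower in Samul-tang, against 1.23% of all genes. Leaving out the 2 libraries that stand apart, the count was 19, all lower in Samul-tang, against 6.37% of all genes. The difference was -0.86 ± 0.09 for SCD (adjusted p = 5.05e-08), -0.69 ± 0.11 for DHCR7 and -0.66 ± 0.09 for FADS2. At the high dose itself, Samul-tang had 14 members lower and 0 higher than Sagunja-tang, against 4.7% of all genes (2.23% higher, 2.47% lower), with a sterol median of -0.29 and a fatty acid median of -0.17. With the 2 libraries left out 21 were called, against 15.6%. The 14 were 7 of 18 sterol genes, 3 of 5 regulators and 4 of 9 fatty acid genes. SCD was at 192, 188 and 190 CPM in Samul-tang high, against 321, 323 and 330 CPM in Sagunja-tang high, and did not overlap.

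**Figure D4:**
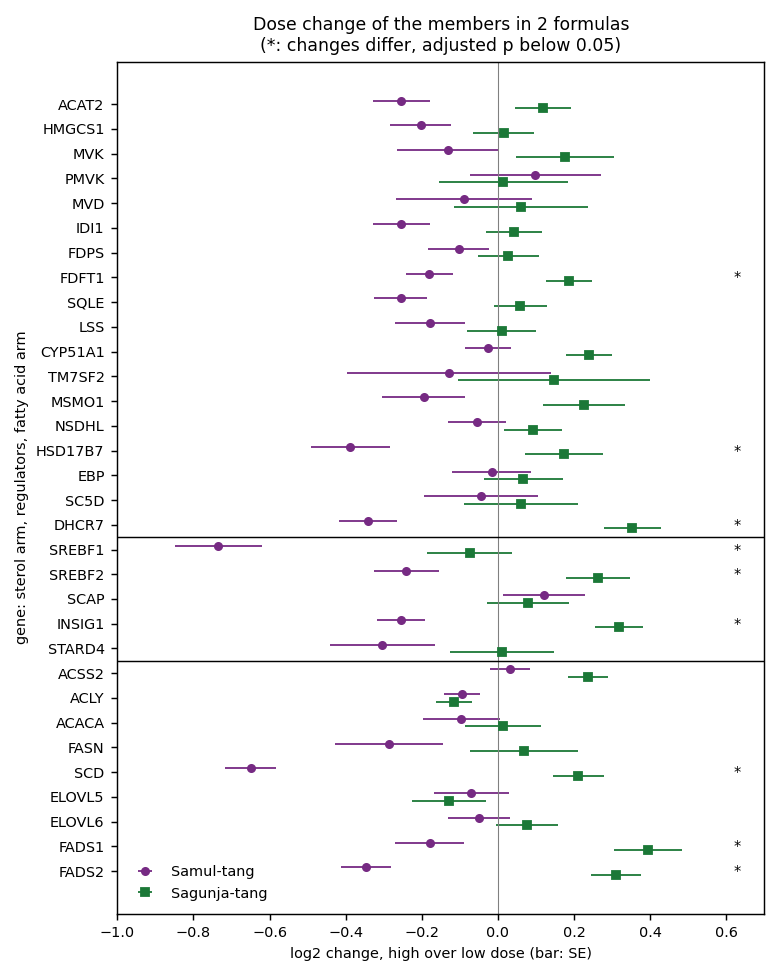
Log2 change of each gene between the high and low dose, with SE bars, in Samul-tang (circles) and Sagunja-tang (squares), with an asterisk where the 2 changes differed at an adjusted p below 0.05. SCD lies at -0.65 in Samul-tang and 0.21 in Sagunja-tang, and 9 genes carry the asterisk.

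The traditional recipe of Palmul-tang combines those of Samul-tang with Sagunja-tang, and Sibjeondaebo-tang extends it with Astragali Radix and Cinnamomi Cortex. These comparisons of dose changes with Palmul-tang were chosen after values were seen. The dose change of Palmul-tang was lower than that of Sagunja-tang for 4 members, DHCR7, INSIG1, SCD and FADS2, against 0.238% of all genes, or for 11 without the 2 libraries, against 1.32%. Against Samul-tang, 0 members were called by edgeR with all libraries and 4 had an unadjusted p below 0.05, and 5 were called without the 2 libraries, all higher in Palmul-tang, against 1.79%. Between Sibjeondaebo-tang high and Palmul-tang high, 0 members were called by edgeR, against 5.45% of all genes (1.75% higher, 3.71% lower), 4 had an unadjusted p below 0.05, and DESeq2 called 1 (964 genes were called by edgeR in all). Leaving out the 2 libraries, 10 were called, against 23.4%, so this count depends on them. The dose changes of Sibjeondaebo-tang and Palmul-tang differed for 0 members in edgeR's test, against 1.06% of all genes, with 0 members at an unadjusted p below 0.05, and for 4 without the 2 libraries, against 15.2%.

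Genes of the pathway outside the 32 were tested as lists chosen with earlier results known. Between the high and low dose of Astragali Radix, 9 of 15 other sterol genes rose and 3 fell, and 8 of 14 tested other fatty acid genes rose and 3 fell, where 70% of all genes were called (31.3% higher, 38.7% lower). Without the 2 libraries that stand apart, 9 of 15 rose and 4 fell, and 9 of 14 rose and 4 fell, against 65.5% of all genes. NPC1, which exports cholesterol from lysosomes, rose by 2.06, and SOAT1, which esterifies cholesterol, by 1.54. In Sagunja-tang NPC1 rose by 0.49. In Sibjeondaebo-tang ME1, an NADPH source, rose by 0.72. Among 7 LXR genes, 5 rose and 1 fell between the doses of Astragali Radix, against 70% of all genes called, and 3 rose and 2 fell without the 2 libraries. With all libraries, at most 1 rose and 1 fell in any other extract, against 0.441% to 21.3% of all genes. Without the 2 libraries, 2 rose and 2 fell in Sagunja-tang, where 2396 of all genes were called. In Samul-tang 0 rose and 3 fell, where 1104 of all genes were called. In Cinnamomi Cortex and Palmul-tang 0 rose and 1 fell, and in Sibjeondaebo-tang 1 rose and 1 fell.

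The single Rehmanniae Radix Preparata libraries allow no test. At the high dose SCD was at 181 CPM, against 276 to 306 CPM in vehicle libraries, and SREBF1 at 27.8 CPM, against 42.9 to 45.7 CPM. Of the sterol genes 11 of 18 lay below the vehicle range and 2 above, and of the fatty acid genes 7 of 9 below and 2 above, beside 71% of all genes outside it. At the medium and low doses SCD was at 286 and 294 CPM, within the vehicle range, and SREBF1 at 48.5 and 50.5 CPM, above it.

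Reads of some members can be shared with other genes. Exons of CYP51A1 overlap the protein-coding gene AC000120.2 by up to 1685 bases on the same strand, whatever the strand setting of the counting, which is not given in the sources used here. On the opposite strand, exons of ACAT2 overlap SOD2 and TCP1, those of FADS1 and FADS2 overlap each other by 165 bases, those of MVK overlap MMAB and those of SREBF1 overlap RAI1, and the annotation lists 8 pseudogenes of FDPS, 3 of CYP51A1, 2 of HSD17B7, 1 of SCD and 1 of FADS2, so values of these genes are uncertain.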

How the data were processed

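Messenger RNA libraries were made with a directional kit and sequenced as paired ends, per the labels' protocols. FastQC 0.11.9, Trim Galore 0.6.5, STAR 2.7.3a, RSEM 1.3.3 and GRCh38 are named in the submitters' processing notes. The table that the authors deposited holds expected counts per gene, not normalized, of which 90.8% were whole numbers within 1e-9; 10684 of 60675 genes had fractional values, and the counts were rounded here. A further 219 columns of the table were not used. The annotation and strand setting are not given in the sources used here.

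The 57 replicated libraries were fitted together with edgeR 4.0.16 (R 4.3.3, limma 3.58.1): TMM scaling, its default filter on low counts (17676 genes kept), the quasi-likelihood F test and Benjamini-Hochberg adjustment over all genes tested, with 0.05 as the threshold. Standard errors were derived from each log2 change and its F statistic (change over root F). CPM used TMM-scaled library sizes of the replicated libraries. Marker CPM used total counts without TMM scaling, and values beside Rehmanniae Radix Preparata used TMM scaling over all 60 libraries. Total counts were 19793387 to 37152410 a library. On data simulated for Samul-tang high against the vehicle, 21, 28, 36 and 45 of 50 genes changed by 1.25, 1.5, 2 and 4 fold were recovered, over 17470 genes.

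The members and lists were chosen with earlier results of these data known. Values per library are given for up to 3 called members an arm with the largest change and a mean of at least 5 CPM, and for further members where a comparison needs them, chosen after their values were seen. Alternatives were DESeq2 1.42.0, RLE scaling, no filter, a replicate block, leaving out libraries, and removal of trends in transcript length and GC content.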

Additional observations from a re-analysis of the deposited data

Results flagged for a closer look

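The change between the high and low dose differed between Samul-tang and Sagunja-tang in edgeR's test of the difference for 9 of the 32 genes. The difference in log2 change, Samul-tang minus Sagunja-tang, was -0.86 for SCD, -0.69 for DHCR7, -0.66 for SREBF1, -0.66 for FADS2, -0.57 for INSIG1, -0.57 for FADS1, -0.56 for HSD17B7, -0.50 for SREBF2 and -0.37 for FDFT1. Of all genes 218 were called in this test. SREBF1 was at -0.74 in Samul-tang and -0.07 in Sagunja-tang, while DHCR7 was at -0.34 in Samul-tang and 0.35 in Sagunja-tang.

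Palmul-tang minus Sagunja-tang gave -0.51 for SCD, -0.51 for INSIG1, -0.50 for FADS2 and -0.48 for DHCR7, and 42 of all genes were called. Both tests use the same Sagunja-tang libraries, so they are not independent of each other.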

How the results depend on the processing

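No call among the 82 values of single named genes changed direction under the alternatives run. Over all 32 genes, EBP between the doses of Astragali Radix was called in the opposite direction without Astragali Radix low replicates 1 and 2 (0.19, beside -0.33), and small differences between the arms did change sign (below zero where negative values are given). Counts of members called, all against the vehicle unless named, moved by over 1.5 times as follows, except that the 21 listed for Samul-tang high is 1.5 times its count of 14. DESeq2 gave 6 in Palmul-tang medium, 6 in Palmul-tang high against low and 1 in Sibjeondaebo-tang high against Palmul-tang high, where RLE scaling also gave 1. Without the filter on low counts the count was 3 in Cinnamomi Cortex medium, Sagunja-tang medium, Sagunja-tang low and Cinnamomi Cortex high against low, and 2 in Samul-tang medium. With length and GC trends removed, chosen after seeing the data, it was 16, 19, 14 and 14 in Astragali Radix medium and Cinnamomi Cortex high, medium and low; 15, 14 and 16 in Sagunja-tang high, medium and low; 14 and 14 in Samul-tang medium and low; 18, 15 and 10 in Palmul-tang; 19, 11 and 11 in Sibjeondaebo-tang. High against low it was 10 in Cinnamomi Cortex, Sagunja-tang and Palmul-tang, 14 in Samul-tang and 11 in Sibjeondaebo-tang, and 12 in Sibjeondaebo-tang high against Palmul-tang high. Without Astragali Radix low replicates 1 and 2 the count was 8 in Astragali Radix low and 19 in medium; 20, 15 and 14 in Cinnamomi Cortex high, medium and low; 17, 17 and 13 in Sagunja-tang; 21, 14 and 13 in Samul-tang; 20, 16 and 10 in Palmul-tang; 19, 14 and 13 in Sibjeondaebo-tang; 14, 12, 19, 14 and 19 for high against low in Cinnamomi Cortex, Sagunja-tang, Samul-tang, Palmul-tang and, last, Sibjeondaebo-tang; and 10 in Sibjeondaebo-tang high against Palmul-tang high. The number of all genes called moved too, by a ratio to the count reported of 0.951 to 3.51 over the comparisons with trends removed (4674 against 2874 in Cinnamomi Cortex high), 0.406 to 6.85 without the 2 libraries, 0.984 to 1.56 with DESeq2 and 0.759 to 1.22 without the filter. The common dispersion was 0.00656 with those libraries and 0.00153 without them.

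The sterol minus fatty acid median was 0.0423 in Astragali Radix low without those libraries. With length and GC trends removed it was 0.517 in Astragali Radix high, -0.0243 in Cinnamomi Cortex low, 0.0492 in Sagunja-tang medium, 0.0585 in Samul-tang medium, 0.0800, 0.0102 and -0.00294 in Palmul-tang high, medium and low, 0.0819 and 0.0428 in Sibjeondaebo-tang high and medium, 0.000564 in Sibjeondaebo-tang high against low and -0.0307 in Sibjeondaebo-tang high against Palmul-tang high. The cause was not tested.

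Leaving out 1 library gave 0.528 to 0.601 for this difference in Astragali Radix high, -0.0339 to 0.0214 in medium and 0.18 to 0.638 in low. It gave -0.0663 to 0.0314, 0.0399 to 0.0773 and 0.0215 to 0.0963 in Cinnamomi Cortex high, medium and low, and -0.0887 to -0.00339, 0.0681 to 0.119 and 0.0419 to 0.0819 in Sagunja-tang. It gave -0.011 to 0.044 in Samul-tang high, 0.118 to 0.184, 0.00731 to 0.0503 and 0.0127 to 0.0852 in Palmul-tang, 0.0512 to 0.0652, 0.0225 to 0.0632 and 0.00944 to 0.0522 in Rehmanniae Radix Preparata, and -0.113 to -0.0431 in Samul-tang high against Sagunja-tang high. It gave counts of 7 to 9, 2 to 5 and 2 to 4 in Cinnamomi Cortex high, medium and low, 3 to 4 in Sagunja-tang low, 2 to 5 and 1 to 3 in Samul-tang medium and low, 7 to 10 in Palmul-tang high, and, high against low, 2 in Cinnamomi Cortex, 3 to 5 in Samul-tang and 1 to 2 in Palmul-tang, with 0 to 1 in Sibjeondaebo-tang high against Palmul-tang high. Of 82 values of single named genes, calls were lost for 10 without the filter, 2 with trends removed (DHCR7), 1 with DESeq2 and 1 without the 2 libraries, and in 92 of 492 values that left out 1 library. Samples share only a replicate number (median correlation 0.009 for the same number, lowest -0.142; 38 of 57 libraries correlated best with their own number). With that number as a block 27 members were called in Astragali Radix high, and no named gene lost its call.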
